A study of Capra hircus with 198 samples.

Results

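The 9 genes described here are factors and markers tied to the building of the cerebellum, and they were taken by name from a count table of 39734 features: ZIC1, its antisense RNA ZIC1-AS1, ZIC2, ZIC4, ZIC5, EN1, EN2, LHX1 and CBLN1. All 9 had a row. The table came from total RNA sequencing of 33 tissues, each taken from the same 6 Murciano-Granadina does, all adult, with 1 library per goat and tissue. The lactating group was made up of goats 2, 3 and 6 and the dry group of goats 54, 64 and 73, and the labels give no other treatment or genotype. The tissue compared with the rest is labelled Cerebellar hemisphere and is called cerebellum below. The 7 other brain tissues are rostral colliculus, bridge (brainstem), medulla oblongata, hypothalamus, hippocampus, frontal neocortex and rhinencephalon.

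ZIC genes encode zinc finger transcription factors that act in the dorsal neural tube, and in the mouse ZIC1 and ZIC4 are needed for normal growth of the cerebellum. The engrailed genes EN1 and EN2 encode homeobox factors of the embryonic border between midbrain and hindbrain, from which the cerebellum forms. LHX1 encodes a LIM homeobox factor of developing Purkinje cells and of the kidney. CBLN1 is not a transcription factor: cerebellin 1 is secreted by granule cells and, in the mouse, bridges presynaptic neurexins to receptors on Purkinje cells. The goats were adult, so the values describe levels in mature tissue and not during development. In bulk tissue, fewer cells of a type and less RNA per cell cannot be told apart.

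Values are CPM, each feature's count scaled to its library's total. These totals lay between 1.31 and 8.97 M counts (median 4.63 M), and the cerebellar libraries held 4.13 to 4.50 M, where 3 counts stood at 0.667 to 0.727 CPM. Hippocampal libraries were shallower, with a median of 1.64 M. Set beside the tissue means of the other goats, 24 libraries were nearest to a tissue other than their own. None of the 6 cerebellar libraries was among them, and 4 other brain libraries were (hypothalamus, hippocampus and frontal neocortex of goat 3, and frontal neocortex of goat 2). All 3 lactating pineal glands also lay closest to another tissue, which touches several results below. In the brain fit described below, 16.1% of all features were higher in cerebellum than in the other brain tissues. Of 14 listed Purkinje cell markers 10 met the filter on low counts, and 9 of these were higher. So were 7 of the 8 granule cell markers that met the filter without the cerebellar libraries. The 3 granule cell markers that met it only through the cerebellum had 24.3 CPM there for NEUROD1, 22.5 CPM for GABRA6 and 21.4 CPM for GRM4, against 0.334, 0.132 and 0.850 CPM in the other brain libraries. None of 3 tested markers of cerebellar interneurons and Bergmann glia was higher, and HOPX was lower. All 5 oligodendrocyte markers were lower.

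Of the 9 genes, 7 had their highest tissue mean in cerebellum. The exceptions were ZIC5, whose mean was highest in the pineal gland, and EN1, whose mean was highest in subcutaneous fat. The genes were picked for their tie to the cerebellum. The share of all features with their highest mean there was not computed. Tau, a specificity score that is 0 for even expression and 1 for a single tissue, was 0.974 for EN2, 0.962 for CBLN1, 0.926 for ZIC4, 0.917 for ZIC1, 0.908 for EN1, 0.881 for ZIC2, 0.859 for LHX1, 0.829 for ZIC5 and 0.825 for ZIC1-AS1. The median over 31305 features was 0.441, and 14.2% of them reached 0.8. The authors' deposited table gave tau values between 0.8349 for ZIC1-AS1 and 1.0 for EN2 for the same genes. The cerebellum held 84.4% of the summed CPM over tissues for CBLN1, 75.8% for EN2, 69.0% for ZIC1-AS1, 64.5% for ZIC1, 57.5% for ZIC4, 35.9% for ZIC2, 30.9% for LHX1, 23.2% for ZIC5 and 2.38% for EN1.

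**Figure D1:**
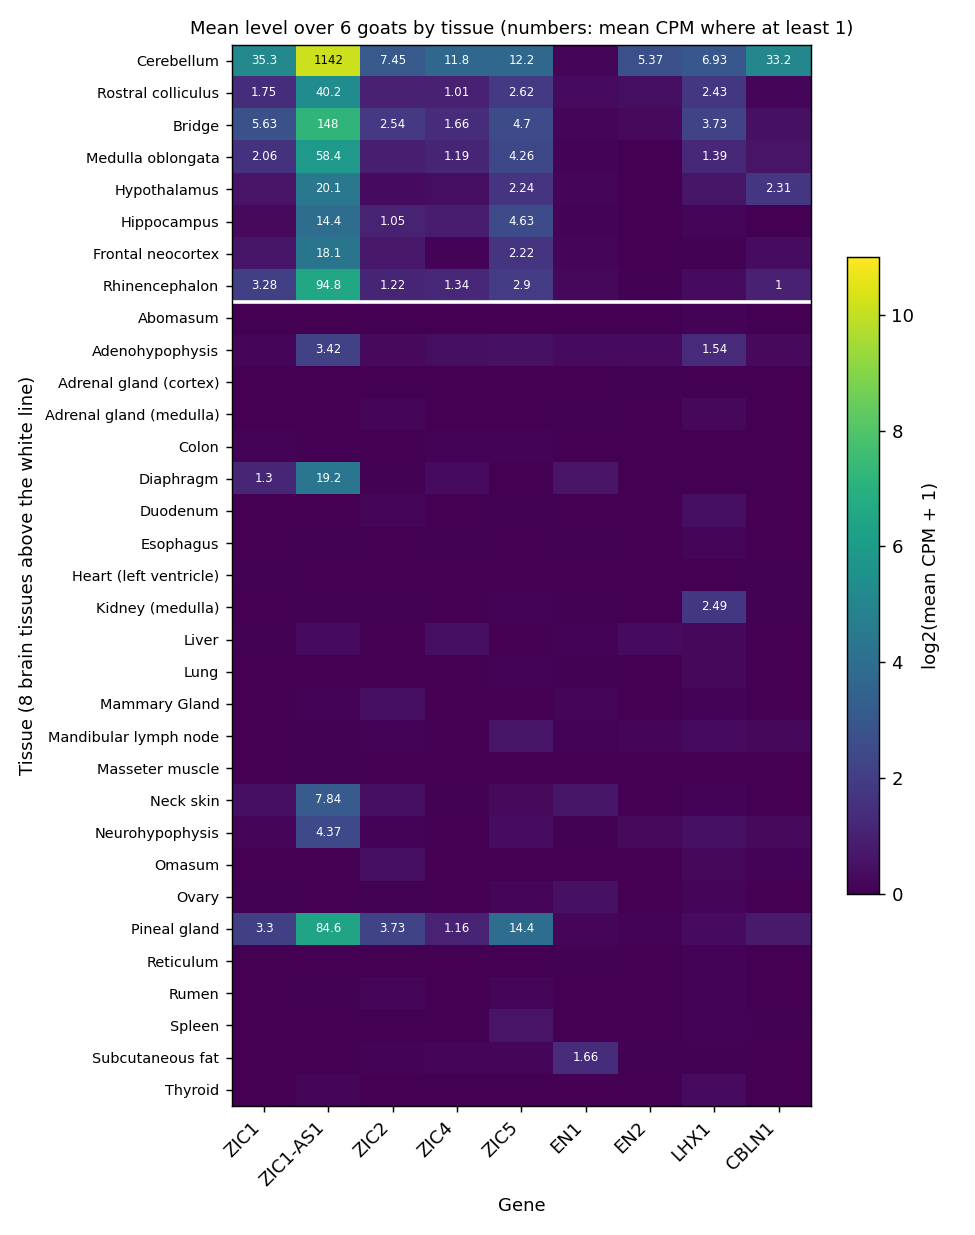
Colour gives log2(mean CPM + 1) over 6 goats for each of the 9 genes (columns) in 33 tissues (rows), with the mean CPM printed where it is at least 1. The cerebellar row on top is the brightest for 7 genes, ZIC5 is brightest in the pineal gland (14.4 CPM, against 12.2 CPM in cerebellum) and EN1 in subcutaneous fat (1.66 CPM).

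ZIC1, the founding member of the family in the cerebellum, had 29.1, 38.4 and 31.9 CPM in the cerebella of lactating goats 2, 3 and 6, and 35.0, 39.5 and 37.8 CPM in those of dry goats 54, 64 and 73. Its mean was 35.3 ± 4.10 CPM (SD, n = 6), and the lowest cerebellar library was above every library of every other tissue. Bridge came next with 5.63 ± 1.72 CPM (n = 6), so that the cerebellar mean was 6.27 times as high. Below bridge the order was pineal gland at 3.30 ± 3.05 CPM, rhinencephalon at 3.28 ± 1.06 CPM, medulla oblongata at 2.06 ± 1.0 CPM and rostral colliculus at 1.75 ± 1.25 CPM. Each of these overlapped its neighbour in the order. ZIC1 reached a mean of 1 CPM in 7 tissues, of which the diaphragm, at 1.3 CPM, and the pineal gland lay outside the 8 brain tissues, and it was at 0 in every library of 15 tissues.

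ZIC1-AS1 is an RNA that the deposited annotation places on the opposite strand of ZIC1, at chromosome 1, positions 120517283 to 120520383 on the plus strand (build not given in the sources used here). It has 2 exons of 2295 and 737 bases with a gap of 69 bases, 3032 exonic bases in all, and the annotation records an exonic overlap with ZIC1. It had 1016, 1110 and 930 CPM in lactating cerebella, against 1274, 1320 and 1201 CPM in dry cerebella, with a mean of 1142 ± 151 CPM (n = 6). All 6 libraries were far above bridge, the next tissue, at 148 ± 36.6 CPM, a ratio of 7.72. Rhinencephalon at 94.8 ± 27.0 CPM, pineal gland at 84.6 ± 62.5 CPM, medulla oblongata at 58.4 ± 34.5 CPM and rostral colliculus at 40.2 ± 8.52 CPM followed, each overlapping the next. Rostral colliculus did not overlap hypothalamus, where the mean was 20.1 CPM.

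Read side by side, ZIC1-AS1 followed ZIC1 from tissue to tissue at a much higher count. In cerebellum 29628 counts fell on ZIC1-AS1 and 916 on ZIC1, a ratio of 32.3, with 28.9 to 36.4 in single libraries. In the 7 tissues with at least 20 ZIC1 counts the ratio lay between 14.5 in diaphragm and 32.3 in cerebellum, with 22.7 in rostral colliculus, 24.7 in pineal gland, 26.2 in bridge, 27.7 in rhinencephalon and 28.1 in medulla oblongata. These are ratios of counts, not of levels per length. ZIC1-AS1 had the higher count in 85 of the 90 libraries in which either was seen, and no library held 3 or more ZIC1 counts without 3 ZIC1-AS1 counts (0 libraries). In the other direction ZIC1-AS1 was counted where ZIC1 was near or at 0, as in the hippocampus with 190 counts against 3, and in the hypothalamus with 574 counts against 14. Across the 33 tissue means the Pearson correlation of log2(CPM + 1) was 0.912, and across the 8 brain tissues it was 0.997. These points share libraries and depth, and the labels name a strand-specific kit but not how the counting used strand, so reads of the pair cannot be told apart with certainty.

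**Figure D2:**
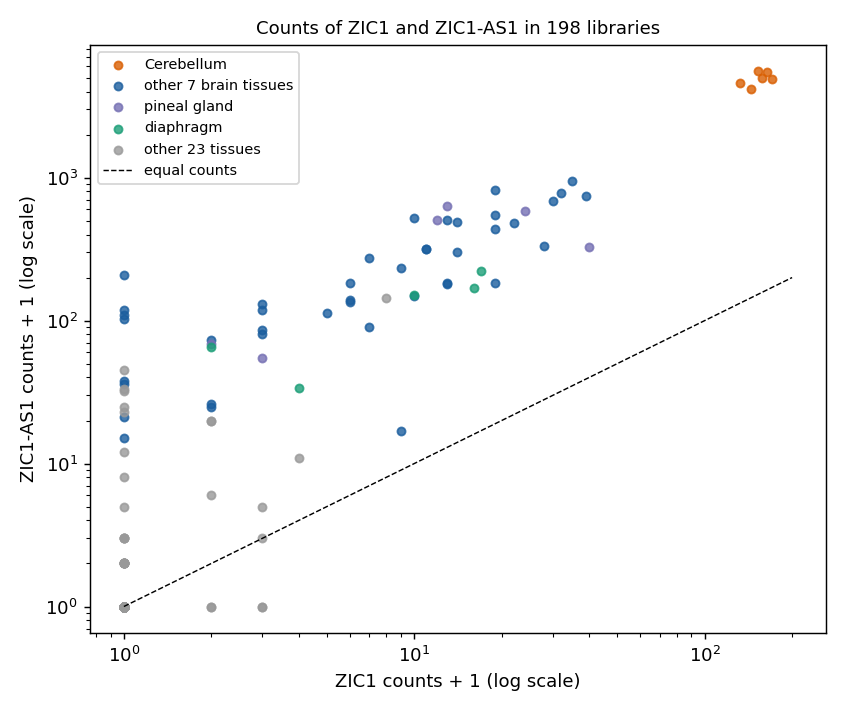
Each point is 1 library, with ZIC1 counts + 1 on the horizontal log axis, ZIC1-AS1 counts + 1 on the vertical log axis and a dashed line at equal counts. The 6 cerebellar libraries stand alone at the upper right, with 131 to 170 ZIC1 counts and 4177 to 5536 ZIC1-AS1 counts, and other brain libraries lie below them and above the dashed line.

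Companion RNAs were also counted at 2 other genes of the set, antisense at ZIC5 and overlapping at LHX1. ZIC5-AS1, an RNA antisense to ZIC5, had 4.80 to 14.3 times the counts of ZIC5 in 9 tissues with at least 20 ZIC5 counts, and the tissue means correlated at 0.982. LHX1-OT1, which the annotation classes as overlapping LHX1, had 3.75 to 12.8 times the counts of LHX1 in 6 tissues, but the correlation over 33 tissues was 0.529. LHX1-OT1 had the higher count in 157 of 171 libraries with either feature.

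ZIC4 lies beside ZIC1 in the RefSeq gene order of assembly ARS1.2. It had 8.22, 10.6 and 8.69 CPM in lactating cerebella, against 20.7, 11.6 and 11.1 CPM in dry cerebella, where the library of goat 54 stood high. The cerebellar mean of 11.8 ± 4.56 CPM (n = 6) was 7.13 times that of bridge, at 1.66 ± 0.965 CPM, and the libraries did not overlap. Rhinencephalon, medulla oblongata, pineal gland and rostral colliculus followed, each overlapping its neighbour. ZIC4 and ZIC1 tissue means correlated at 0.957 over 33 tissues, again over shared libraries.

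ZIC2 and ZIC5 are neighbours on another chromosome, and both were less restricted to the cerebellum. ZIC2, known in humans as a gene of forebrain midline formation, had 6.44, 4.07 and 5.35 CPM in lactating cerebella, against 12.4, 7.27 and 9.16 CPM in dry cerebella. Its cerebellar mean of 7.45 ± 2.99 CPM (n = 6) was 2.0 times the pineal mean of 3.73 ± 4.6 CPM, and the 2 tissues overlapped. That pineal mean pools 0.621 CPM in lactating and 6.85 CPM in dry glands. Bridge followed at 2.54 ± 0.964 CPM, rhinencephalon at 1.22 ± 0.370 CPM and hippocampus at 1.05 ± 0.998 CPM. ZIC5 had 13.1, 9.04 and 8.46 CPM in lactating cerebella, against 18.2, 12.1 and 12.5 CPM in dry cerebella. The cerebellar mean of 12.2 ± 3.48 CPM (n = 6) stood just below the pineal mean of 14.4 ± 11 CPM, which it overlapped, and above bridge at 4.70 ± 1.25 CPM, which it did not. The order of the 2 tissues differed between states: ZIC5 averaged 10.2 CPM in cerebellum and 5.17 CPM in pineal gland of lactating goats, and 14.3 CPM in cerebellum and 23.7 CPM in pineal gland of dry goats. ZIC5 was the only ZIC coding gene whose mean reached 1 CPM in each of the 8 brain tissues.

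EN2 had 5.78, 5.88 and 5.35 CPM in lactating cerebella, against 4.14, 4.6 and 6.51 CPM in dry cerebella. These values lay close together, with a mean of 5.37 ± 0.873 CPM (n = 6). Rostral colliculus, a midbrain tissue, came second at 0.335 ± 0.451 CPM, and the cerebellar mean was 16.0 times as high with no overlap. That second place overlapped liver, at 0.264 CPM, and went to neurohypophysis without goat 64 and to liver without goat 73. In medulla oblongata, hypothalamus, hippocampus and frontal neocortex all libraries were at 0. Against 3 counts over the 6 libraries of each, EN2 was at least 53.8-fold higher in cerebellum than in medulla oblongata, at least 51.4-fold higher than in hypothalamus, at least 54.5-fold higher than in frontal neocortex and at least 23.6-fold higher than in the shallower hippocampus. EN2 reached 3 counts in 13 libraries, 6 of them cerebellar.

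EN1, the other engrailed gene, was near the detection limit throughout the brain. It had 0, 0 and 0 CPM in lactating cerebella, against 0.460, 0.242 and 0 CPM in dry cerebella, which is 3 counts in all. The highest brain library was the rostral colliculus of goat 73, at 0.805 CPM or 4 counts. In subcutaneous fat EN1 had 1.37, 0 and 0.978 CPM in lactating goats, against 0, 3.63 and 3.98 CPM in dry goats, a mean of 1.66 ± 1.75 CPM (n = 6) that overlapped neck skin at 0.546 ± 0.865 CPM. Only 135 EN1 counts were seen over all libraries, and 14 libraries held 3 or more, so the order of its tissues rests on few reads.

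LHX1 had 4.89, 6.55 and 6.01 CPM in lactating cerebella, against 10.8, 6.54 and 6.77 CPM in dry cerebella. The goat 54 library was again the highest. The cerebellar mean of 6.93 ± 2.02 CPM (n = 6) was 1.86 times the bridge mean of 3.73 ± 2.18 CPM, and the 2 tissues overlapped. Kidney medulla followed at 2.49 ± 2.44 CPM, with 6.26, 0 and 0.841 CPM in lactating goats and 1.37, 4.69 and 1.78 CPM in dry goats. Rostral colliculus stood at 2.43 ± 1.87 CPM, adenohypophysis at 1.54 ± 1.5 CPM and medulla oblongata at 1.39 ± 1.13 CPM, all overlapping their neighbours. Frontal neocortex held a single LHX1 count in 6 libraries.

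CBLN1 had 40.2, 28.5 and 29.6 CPM in lactating cerebella, against 35.4, 30.8 and 34.5 CPM in dry cerebella, a mean of 33.2 ± 4.40 CPM (n = 6). The next tissue was hypothalamus, with 0, 2.40 and 1.84 CPM in lactating goats and 1.67, 4.17 and 3.77 CPM in dry goats. The cerebellar mean was 14.4 times the hypothalamic mean of 2.31 ± 1.52 CPM, with no overlap. Rhinencephalon followed at 1.0 ± 0.983 CPM. CBLN1 was at 0 in all 6 hippocampal libraries, which made it at least 146-fold higher in cerebellum against 3 counts over that tissue.

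**Figure D3:**
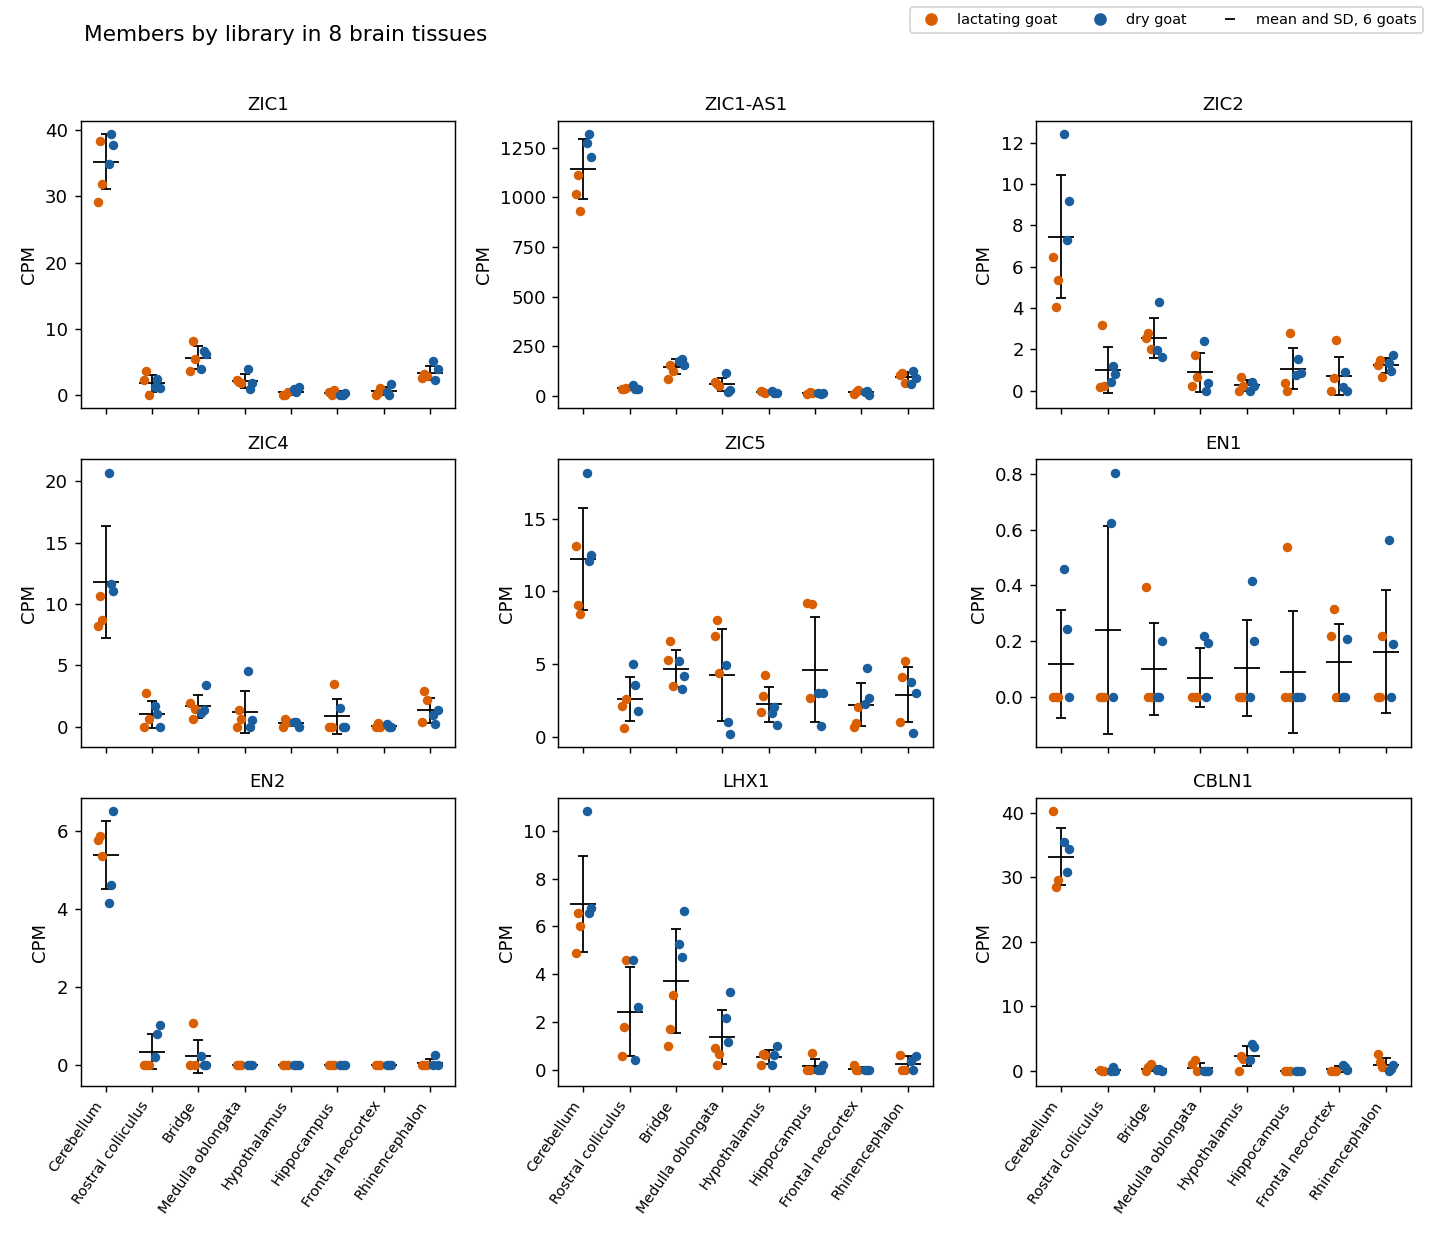
Each panel gives 1 gene, with CPM per library on a linear vertical axis, the 8 brain tissues along the horizontal axis, orange points for lactating goats, blue points for dry goats and black marks for the mean and SD over 6 goats. Cerebellar points stand clear of the other tissues for ZIC1, ZIC1-AS1, ZIC4, EN2 and CBLN1, LHX1 and ZIC2 overlap bridge, ZIC5 overlaps hippocampus, and EN1 stays below 1 CPM.

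The libraries of the 8 brain tissues were then tested in a single edgeR quasi-likelihood fit on 22893 features, with Benjamini-Hochberg adjustment over all of them and a threshold of 0.05. Against the unweighted mean of the 7 other brain tissues, 16.1% of features were higher in cerebellum and 15.6% were lower. Over the 22440 features that met the filter on low counts without the cerebellar libraries, the shares were 15.6% higher and 16% lower. Of the 9 genes 6 met it that way, and all 6 were higher in cerebellum. EN1 did not meet the filter. EN2 and CBLN1 met it only through the cerebellar libraries, so their direction was fixed by the filter and their fold changes are descriptions with no test. CBLN1 had 33.2 ± 4.40 CPM in cerebellum and 0.659 ± 1.04 CPM in the 42 other brain libraries, a log2 fold change of 6.31. EN2 had 5.37 ± 0.873 CPM in cerebellum and 0.0842 ± 0.253 CPM in the others, a log2 fold change of 6.26. For both genes the fitted size depends on the prior count, since EN2 was at 0 throughout 4 of the other tissues and CBLN1 throughout 1. Among the 6 tested, ZIC1-AS1 stood at 4.6 (SE 0.153, adjusted p = 1.13e-29) and ZIC1 at 4.56 (SE 0.264, adjusted p = 3.93e-20), 23rd and 24th highest. ZIC4 stood at 3.86 (SE 0.437, adjusted p = 4.36e-10), LHX1 at 3.32 (SE 0.378, adjusted p = 5.09e-10) and ZIC2 at 2.77 (SE 0.397, adjusted p = 1.52e-07). The contrast averages the tissues on the log scale, so nearly empty tissues weigh as much as the others. LHX1 had 1 count over frontal neocortex, 2 over hippocampus and 8 over rhinencephalon, and its fitted size depends in part on the prior count. ZIC5 had the smallest difference of the 6, at 1.70 (SE 0.320, adjusted p = 2.85e-05), and ranked 561st. The median over all features was -0.03.

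Taken tissue by tissue, the differences that missed the threshold lay against bridge, rostral colliculus and hippocampus. Against bridge, where 12.4% of features were higher in cerebellum, 3 of the 6 genes were: ZIC1-AS1, ZIC4 and ZIC1. ZIC1 was 2.37 higher on the log2 scale (SE 0.425, adjusted p = 1.99e-05) and ZIC1-AS1 2.68 higher (SE 0.279, adjusted p = 9.92e-11). LHX1 did not pass, with a log2 fold change of 0.61 (95% interval -0.46 to 1.67, adjusted p = 0.458). ZIC2, at 1.26 (interval 0.06 to 2.47, adjusted p = 0.130), and ZIC5, at 1.11 (interval 0.17 to 2.05, adjusted p = 0.0832), did not pass either. With only the 12 libraries of cerebellum and bridge in the fit, ZIC2 and ZIC5 passed (adjusted p = 0.00618 for ZIC2 and 0.00162 for ZIC5).

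Against rostral colliculus, where 9.19% of features were higher in cerebellum, 5 of the 6 genes passed. ZIC1-AS1 was higher by 4.59 (SE 0.306, adjusted p = 7.90e-17). CBLN1 and EN2, again as descriptions, had log2 fold changes of 7.45 and 3.68 against rostral colliculus and 6.02 and 4.31 against bridge. LHX1 was higher by 1.28 (interval 0.19 to 2.36) and missed the threshold (adjusted p = 0.0997), although its libraries did not overlap. With the goat as a block LHX1 passed, at 1.42 (adjusted p = 0.0478), and it also passed with only the 12 libraries of the 2 tissues (adjusted p = 0.0340).

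All 6 genes were higher in cerebellum than in medulla oblongata, hypothalamus, frontal neocortex and rhinencephalon, where 12.3%, 10%, 11.1% and 7.94% of features were higher. Against hippocampus, with 10.9% of features higher, ZIC5 missed the threshold at 1.2 (interval 0.20 to 2.19, adjusted p = 0.0848) and the other 5 passed. Fold changes of ZIC1 were widest against hippocampus, at 6.94 (SE 0.677), and narrowest against bridge. For LHX1 they ran from 0.61 against bridge to 6.51 (SE 0.855) against frontal neocortex. Both widest values rest on a reference near 0, with 3 ZIC1 counts over the hippocampus and 1 LHX1 count over frontal neocortex. Their fitted size therefore depends on the prior count. The call of ZIC5 against medulla oblongata, 1.35 (SE 0.484, adjusted p = 0.0315), was lost without goat 6, 54, 64 or 73, with adjusted p up to 0.121.

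**Figure D4:**
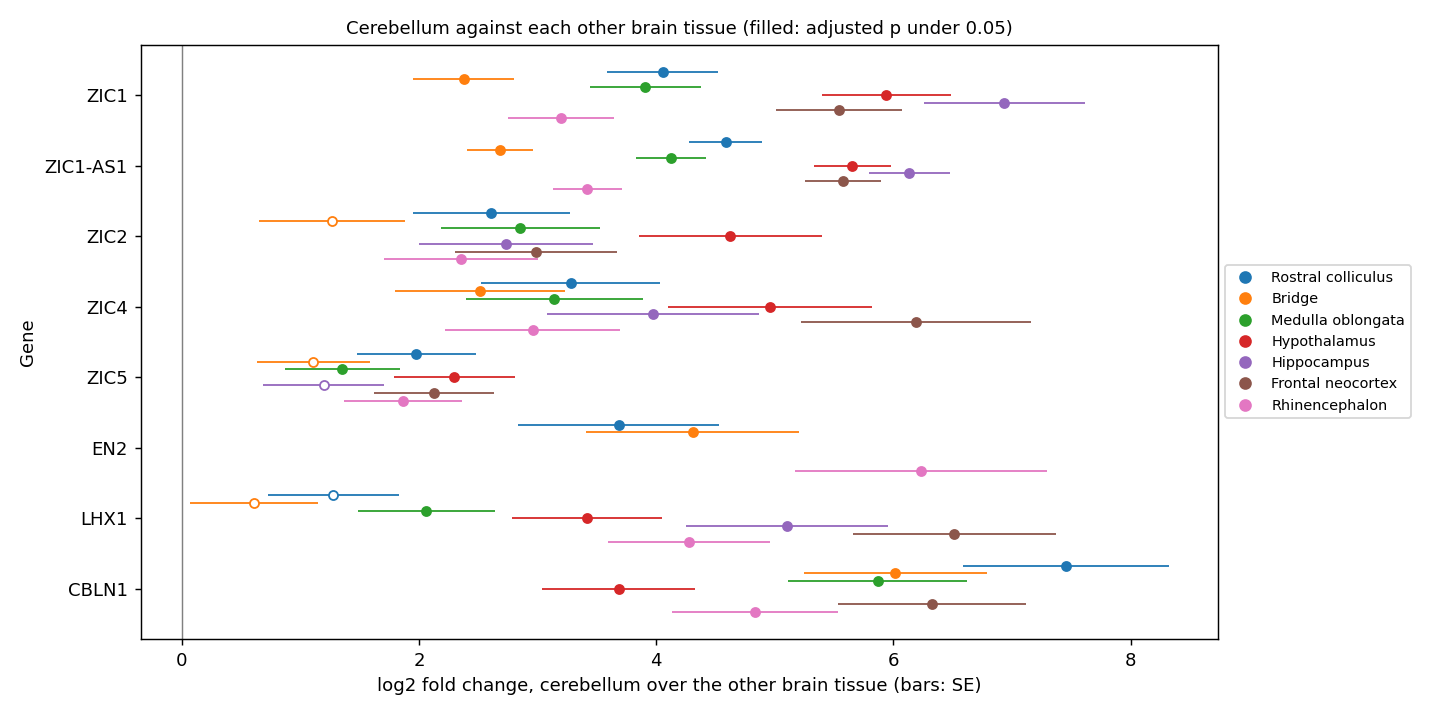
Points give the log2 fold change of cerebellum over each of 7 other brain tissues (colours) for the 8 genes fitted, with SE bars, filled where the adjusted p was under 0.05 and open where it was not (a description for EN2 and CBLN1, whose direction the filter fixed), and none is drawn against a tissue with all 6 libraries at 0. The open points are LHX1, ZIC2 and ZIC5 against bridge, LHX1 against rostral colliculus and ZIC5 against hippocampus.

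Among the 7 other brain tissues only 2 pairs were compared. In rostral colliculus, compared with bridge across the border of midbrain and hindbrain, 0.983% of features were lower and 1.99% higher, and 2 of the 8 tested genes were lower. ZIC1 had 2.29, 3.56 and 0 CPM in lactating colliculi and 1.25, 2.39 and 1.0 CPM in dry colliculi, against 3.53, 8.08 and 5.34 CPM in lactating bridges and 3.93, 6.66 and 6.22 CPM in dry bridges. Its log2 fold change was -1.68 (SE 0.459, adjusted p = 0.0256), and the call was lost without goat 6, 54, 64 or 73 (adjusted p = 0.0591 to 0.140). ZIC1-AS1 was lower by a log2 fold change of -1.91 (SE 0.276, adjusted p = 2.69e-06), and the tissues did not overlap. EN2 and LHX1 did not pass there, with intervals of -1.26 to 2.51 for EN2 and -1.76 to 0.42 for LHX1.

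In hypothalamus, compared with frontal neocortex, 3.37% of features were higher and 2 of 7 genes were, with EN2 at 0 in all 12 libraries. CBLN1 was higher by 2.64 (SE 0.814, adjusted p = 0.0316) and LHX1 by 3.10 (SE 0.969, adjusted p = 0.0332). LHX1 held no more than 5 counts in a hypothalamic library. Neither call was firm: CBLN1 lost it without goat 3, 6, 64 or 73, and LHX1 without goat 3, 6, 54, 64 or 73. CBLN1 also lost it without the libraries that lay closest to another tissue, at 2.15 (adjusted p = 0.154), and with DESeq2 (adjusted p = 0.0749). The ZIC genes did not pass, with log2 fold changes of -0.40 for ZIC1, -1.64 for ZIC2, 1.23 for ZIC4 and -0.17 for ZIC5.

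The lists around these genes were read in the same fit, against the background of 16.1% higher and 15.6% lower. In the cerebellin pathway 3 of 11 tested genes were higher in cerebellum and 4 lower. CBLN3, a granule cell partner of CBLN1, was higher by 3.74 (30.7 ± 4.36 CPM in cerebellum and 2.03 ± 1.27 CPM in other brain libraries). CBLN2, a paralog known from other brain regions, was lower by a log2 fold change of -4.17, at 0.115 ± 0.282 CPM in cerebellum and 2.53 ± 2.18 CPM elsewhere in the brain. C1QL1, a related secreted protein, was at -3.54. In the network of the midbrain and hindbrain organiser only 9 of 18 listed genes met the filter on low counts. None of the 9 was higher and 3 were lower, WNT1 at -2.22 and the corepressor TLE4 at -2.37 among them. WNT1 averaged 0.196 CPM in cerebellum, under the level of 3 counts in a library, and 1.27 CPM in other brain libraries. By edgeR at an unadjusted p under 0.05 the number higher was also 0.

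Among 5 tested partners of the ZIC family, MEIS1 was higher at 1.81 and MEIS2 lower at -2.26, both TALE homeobox genes. MEIS1 had 15.1 ± 3.59 CPM in cerebellum and 4.34 ± 2.72 CPM in other brain libraries, while MEIS2 had 0.620 ± 0.379 CPM and 6.14 ± 8.69 CPM. In the LIM homeobox list 1 of 8 tested genes was higher, LHX5 at 1.38, the closest relative of LHX1. Lower were LMO3 at -3.22, LMO4 at -1.56 and the cofactor LDB1 at -1.46. The medians of these lists were -0.13 for the cerebellin pathway, -0.82 for the organiser network, 0.26 for the ZIC partners and -0.05 for the LIM list.

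Cell type markers moved in the same contrast. Granule cell markers had a median of 2.94 over 11 in the fit, led by GABRA6 at 7.09, NEUROD1 at 6.83 and GRM4 at 5.15, the 3 that met the filter only through the cerebellum. The filter fixed the direction of these 3, which the median includes. Of the 8 others 7 were higher. Purkinje markers had a median of 1.87 over the 10 tested of 14 listed, led by CA8 at 3.27 and CALB1 at 2.54. All 5 oligodendrocyte markers were lower, with a median of -3.12, and MOBP at -3.34 and MBP at -3.12 were among them. Their summed level was 31.3 to 52.8 CPM in cerebellar libraries, against tissue means between 91.4 CPM in frontal neocortex and 919 CPM in bridge. All 3 astrocyte markers were lower, GFAP at -1.66 and AQP4 at -1.38 among them. Of the 5 tested forebrain markers 3 were lower, EMX1 among them, and NEUROD6 was higher, at 2.11. NEUROD6 had 2.56 ± 1.33 CPM in cerebellum and 1.28 ± 2.40 CPM in other brain libraries. The highest of those had 9.87 CPM, above the highest cerebellar library at 3.63 CPM. Of 4 choroid plexus markers KCNJ13 was higher at 0.60 and TTR lower at -2.06, of 5 meningeal markers DCN and LUM were lower and FOXD1, which met the filter only through the cerebellum, stood at 2.23, and of 3 interneuron and Bergmann glia markers HOPX was lower at -2.95. None of 2 dopamine neuron and 3 thalamic markers passed, and 1 of 2 kidney tubule markers was higher, SLC12A1 at 1.02. NEUROD6, FOXD1, SLC12A1 and LHX5 of the LIM list are named after their values were seen. The part of tissue content in the differences of the 9 genes was not tested.

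For 6 of the genes, the features whose tissue means of log2(CPM + 1) were most like them were taken over 33 tissues. For EN2 these were GABRA6 (r = 0.971), the homeobox gene BARHL2 (r = 0.964), LOC102171594 (r = 0.932) and the RNA FAM53B-IT6 (r = 0.961). CBLN1 had BARHL2 (r = 0.937), GABRA6 (r = 0.926), the transfer RNA gene TRNAM-CAU_6 (r = 0.923) and LINC41769 (r = 0.959). ZIC4 had LOC106502121 (r = 0.905), ENGASE (r = 0.903), PAX6 (r = 0.900) and LINC41769 (r = 0.900). ZIC1 was most like LOC106502121 (r = 0.887), SLC22A12 (r = 0.885), LRRN4 (r = 0.874) and LINC30261 (r = 0.867). LHX1 had lower values, with TTYH2 (r = 0.799), CDH7 (r = 0.785), PLEKHG3 (r = 0.766) and LINC54017 (r = 0.743). All of these were highest in cerebellum except PLEKHG3, which averaged 21.8 CPM in cerebellum and 35.1 CPM in rostral colliculus. EN1 was most like features that peaked in subcutaneous fat, TUSC5 (r = 0.874), EBF2 (r = 0.873), LOC108633373 (r = 0.856) and LINC04670 (r = 0.914). The tissues share libraries, and these are descriptions.

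Lactation and the dry state were compared within each tissue, 3 goats against 3. In cerebellum 1.09% of 17956 features passed in either direction, and none of the 8 tested genes did by edgeR or by DESeq2. By edgeR 1 of the 8, ZIC1-AS1, had an unadjusted p under 0.05, as had 2079 features. ZIC1-AS1 averaged 1019 CPM in lactating and 1265 CPM in dry cerebella, and the goats did not overlap. Its log2 fold change was -0.20 (interval -0.37 to -0.03, adjusted p = 0.377). ZIC2 and ZIC4 did not overlap between states either, with -0.75 (interval -1.48 to -0.02, adjusted p = 0.476) for ZIC2 and -0.55 (interval -1.16 to 0.07, adjusted p = 0.557) for ZIC4. For the others the intervals were -0.40 to 0.27 for ZIC1, -0.96 to 0.21 for ZIC5, -0.52 to 1.05 for EN2, -1.09 to 0.38 for LHX1 and -0.29 to 0.45 for CBLN1. The share of all features whose states did not overlap was not computed, in cerebellum or in the tissues below. Separations between states are therefore descriptions.

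In the 32 other tissues 26 pairs of a gene and a tissue could be tested, 7 had an unadjusted p under 0.05 and 2 passed after adjustment, where 1.93% of all features tested passed. The filter on low counts used the same libraries of each tissue. ZIC2 in pineal gland, ZIC1-AS1 in diaphragm, LHX1 in bridge and ZIC5 in medulla oblongata had low libraries in 1 state. They met the filter with the libraries of the other state, so their p-values are given as descriptions. Unadjusted p was under 0.05 for 3 of 4 genes and 3833 of 18070 features in pineal gland. The counts were 2 of 5 and 1838 of 18575 in bridge, 1 of 1 and 2673 of 15310 in diaphragm. In medulla oblongata they were 1 of 2 and 1237 of 18719. ZIC5 was lower in lactating pineal glands, at 3.61, 9.18 and 2.72 CPM, against 27.0, 22.8 and 21.1 CPM in dry ones, in a tissue where 7.97% of features passed. The states did not overlap, and the log2 fold change was -1.94 (SE 0.430, adjusted p = 0.0314). In the same glands ZIC1-AS1 had 10.8, 68.2 and 14.2 CPM in lactating goats, against 151, 126 and 137 CPM in dry goats, at -1.94 (SE 0.578, adjusted p = 0.0875). ZIC2 had 0.402, 1.46 and 0 CPM in lactating goats, against 12.3, 3.23 and 4.98 CPM in dry goats, at -3.18 (SE 1.03, adjusted p = 0.114).

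Of 4 pineal genes, 3 were at or near 0 in the lactating pineal libraries and counted in every dry one. TPH1, an enzyme of serotonin synthesis, had 0, 0 and 0.419 CPM in lactating goats, against 124.5, 57.1 and 100.1 CPM in dry goats. ASMT, which completes melatonin synthesis, had 0, 0.835 and 0 CPM in lactating goats, against 19.7, 8.44 and 11.1 CPM in dry goats. CRX, a pineal and photoreceptor transcription factor, was at 0 in all 3 lactating libraries, against 4.51, 3.47 and 6.88 CPM in dry ones. AANAT, an enzyme of melatonin synthesis, did not separate the states, at 0 in the 3 lactating libraries and at 1.42, 0 and 0 CPM in dry ones. The lactating libraries lay closest to hypothalamus for goats 2 and 6 and to rhinencephalon for goat 3. State and tissue content cannot be told apart there. The ZIC5 call was lost without goat 2, 54, 64 or 73 (adjusted p = 0.106 to 0.145), a set of alternatives chosen after the data were seen.

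ZIC1-AS1 was also lower in the diaphragm of lactating goats, at 6.56, 14.3 and 0 CPM, against 29.3, 38.3 and 26.6 CPM in dry goats. The states did not overlap, and the log2 fold change was -2.52 (SE 0.63, adjusted p = 0.0498). This is a description, since the pair met the filter with the dry libraries. ZIC1 itself was too low there to be tested, at 0.597, 0.223 and 0 CPM in lactating goats and 2.62, 2.75 and 1.6 CPM in dry goats. Each of the 6 diaphragm libraries was nearest to its own tissue, and 2.33% of features passed there. The call was lost with another scaling (RLE size factors, adjusted p = 0.0503), with DESeq2 (adjusted p = 0.346) and, in alternatives chosen after the data were seen, without goat 2, 54, 64 or 73 (adjusted p = 0.0972 to 0.162). In bridge LHX1 had 0.982, 1.70 and 3.13 CPM in lactating goats, against 5.24, 4.70 and 6.63 CPM in dry goats. The states did not overlap, yet the difference of -1.49 did not pass (SE 0.541, adjusted p = 0.331). ZIC1-AS1 in bridge averaged 123 CPM in lactating and 173 CPM in dry goats, at -0.50 (SE 0.171, adjusted p = 0.284). The 1 pair of the 7 that went the other way was ZIC5 in medulla oblongata, which averaged 6.46 CPM in lactating and 2.06 CPM in dry goats, at 1.61 (SE 0.723, adjusted p = 0.747), with overlapping states.

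**Figure D5:**
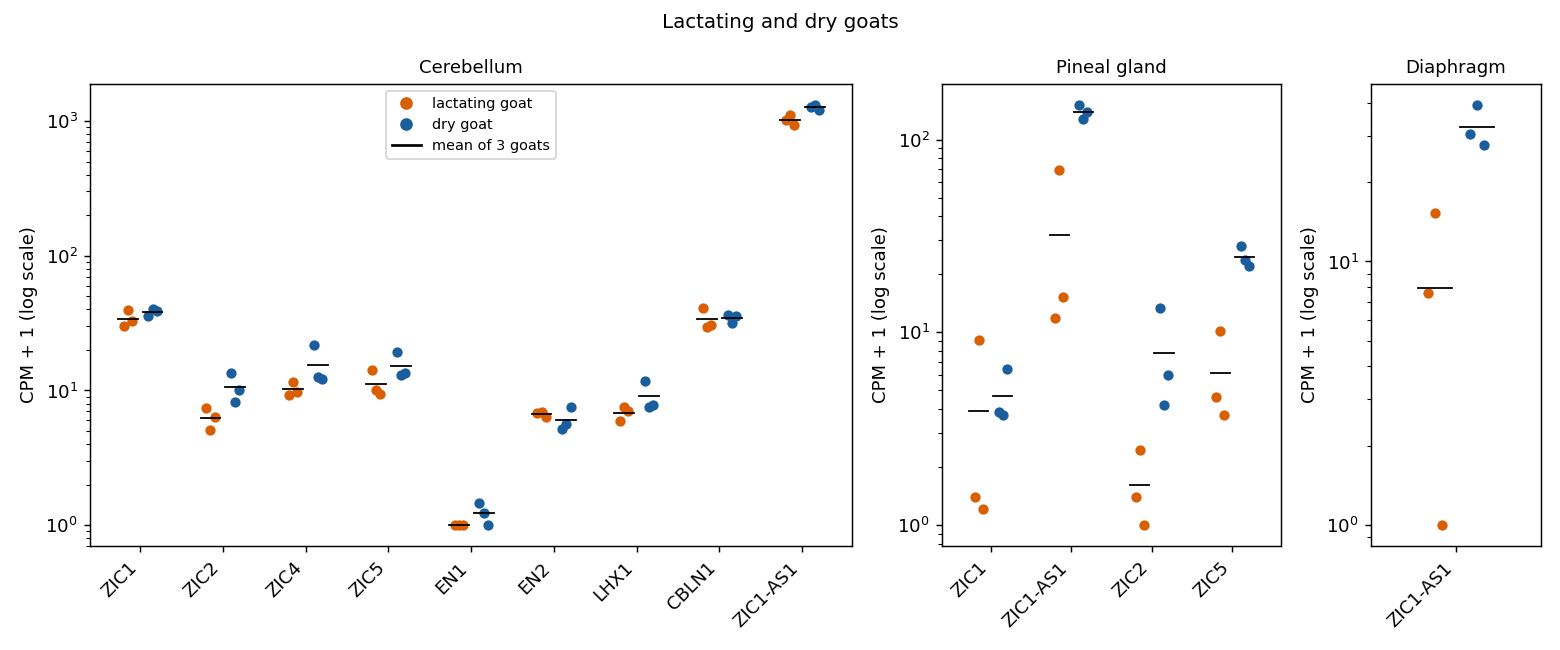
Points give CPM + 1 per goat on a log axis for the genes tested in cerebellum (with EN1), pineal gland and diaphragm, with lactating goats in orange left of dry goats in blue and a black line at the mean of 3 goats. All lactating points lie below the dry ones for ZIC1-AS1, ZIC2 and ZIC4 in cerebellum, for ZIC1-AS1, ZIC2 and ZIC5 in pineal gland and for ZIC1-AS1 in diaphragm. The share of all features separated in this way was not computed.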

How the data were processed

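Per the labels' protocols, total RNA was extracted with the RiboPure kit and libraries were strand-specific. STAR, StringTie and edgeR are named, per the submitters' processing notes, without versions; roles, strand use in counting and genome build are not given in the sources used here. The authors deposited expected counts per feature and library (36.9% of nonzero values fractional), rounded here for the fits and divided by library totals for CPM. A mean of 85.0% of the counts fell in lncRNA features. The authors' deposited tau is a fraction with no formula given; tau was recomputed from tissue means of log2(CPM + 1). Deposited start and end positions (no build named) served for the antisense RNAs. The other deposited tables were not used: the CPM-named one was held in part, and that named for gene length gives no absolute length, so levels were not compared between genes.

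Fits used edgeR 4.0.16 in R 4.3.3: quasi-likelihood F-tests, TMM scaling, filterByExpr with a minimum count of 10, Benjamini-Hochberg adjustment, two-sided, and were tested on simulated data. SE is the log2 fold change over the square root of F, and intervals are 1.96 SE to each side. They are narrower than true 95% intervals where a fit has few libraries, as between states. Floors of 3 counts cover counting error only. Replicates are different goats, and the same goats gave every tissue. Same-goat deviations of cerebellum and other brain tissues correlated between -0.053 and 0.203. The cerebellar library was most like that of its own goat for 6 of 6 goats in rostral colliculus. It was so for 5 in bridge and medulla oblongata, 4 in hypothalamus and hippocampus and 3 in frontal neocortex and rhinencephalon. The main fit left this pairing out. The goat block was an alternative, as were DESeq2 1.42.0, RLE scaling, no filter, features outside the lncRNA annotation, fewer libraries and leaving out each goat. The genes, lists and tests were chosen with earlier results of these data known. Named list genes are up to 3 per list, by size of change among those called with all cerebellar libraries on one side of the other brain mean; like features are the 3 non-lncRNA and 1 lncRNA features of highest correlation among features whose mean reached 5 CPM in a tissue. Pineal markers were chosen after the data were seen. Some genes of the lists are counted but not reported by name here.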

Additional observations from a re-analysis of the deposited data

Results flagged for a closer look

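A single goat stood far from the other 5 in 6 of the 51 pairs of a gene and a tissue with a mean of at least 1 CPM, and 1 in 20 would be flagged by chance. Of the 6, 4 came from goat 54. ZIC4 in its cerebellum had 20.7 CPM, with 11.6 CPM in the next library, and LHX1 in the same library had 10.8 CPM, with 6.77 CPM next. ZIC4 in the medulla oblongata of goat 54 had 4.54 CPM, with 1.34 CPM next. ZIC1-AS1 in its rostral colliculus had 56.9 CPM, with 41.4 CPM next. These 3 libraries lay closest to their own tissues. ZIC1-AS1 in the neck skin of goat 3 had 39.3 CPM, with 5.71 CPM next, in a library that lay closest to diaphragm. LHX1 in the adenohypophysis of goat 64 had 4.38 CPM, with 1.62 CPM next, in a library that lay closest to neurohypophysis.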

How the results depend on the processing

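Of 1092 log2 fold changes recomputed under alternatives, 1045 kept direction and side of the threshold, 32 lost the call, 6 gained it and 9 changed sign, all 9 among uncalled differences. The 1092 include EN2 and CBLN1 in cerebellum against other brain tissues, where the filter fixed the direction. The tally therefore covers more than tested differences. Features called in cerebellum against the other brain tissues numbered 7260, 5880 to 6945 without 1 goat, and 4118 among features outside the lncRNA annotation, where fewer features were tested; in that contrast ZIC1, ZIC2, ZIC4, ZIC5 and LHX1 kept their calls in all 12 alternatives and ZIC1-AS1 in the 11 that tested it. Features called between states in cerebellum numbered 196, but 579 without a filter, 115 outside the lncRNA annotation, 313 with DESeq2 and 87 to 120 without 1 goat; the cause was not tested. In rostral colliculus against bridge 1 gene passed when lncRNA features were left out (ZIC1-AS1 was not tested) and 1 to 2 without 1 goat. In hypothalamus against frontal neocortex 1 passed with DESeq2, without a filter or without libraries closest to another tissue, and 0 to 2 without 1 goat. In the 32 other tissues 1 pair passed between states with RLE or outside the lncRNA annotation. Signs changed without 1 goat for EN2 in colliculus against bridge (-0.27 to 2.63), for ZIC1-AS1 (-0.32 to 0.14) and ZIC5 (-0.44 to 0.13) in hypothalamus against neocortex, and for CBLN1 (-0.086 to 0.19) and ZIC1 (-0.16 to 0.029) between states in cerebellum. With the goat as a replicate block, LHX1 in cerebellum against rostral colliculus passed at 1.42, and no other call changed. With TMM-scaled totals the cerebellar mean over the next tissue was 5.08 for ZIC1 and 6.25 for ZIC1-AS1; 7 of 9 genes stayed highest in cerebellum without any 1 goat. Counts a library were few for EN1 in the brain and for EN2 outside cerebellum. For LHX1 outside cerebellum they varied, with up to 33 in bridge and 27 in kidney medulla, and 1 over all frontal neocortex libraries.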
